A study of Mus musculus with 586 samples.

Results

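The anterior and posterior sides of the distal epiblast were compared within 6 mouse embryos at E6.5, when the primitive streak begins to form on the posterior side of the epiblast. The members were chosen from the labels alone: of the 586 libraries of the series, the 36 that carried the region code P or A in sections 2, 3 or 4 of an embryo labelled E6.5, which gave 18 of each code. Sections are numbered from the distal end of the egg cylinder, so sections 2 to 4 are the distal part of the epiblast and sections 5 and above (19 further P and 19 further A libraries) are its proximal part. The undivided section 1, coded 1AP and available in 6 libraries, was set beside them as the distal tip. The labels do not spell out the codes, which are read here as posterior and anterior epiblast after the published atlas of this work.

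All embryos were C57BL/6, and the labels name no mutation, transgene or treatment, so by their labels P and A libraries share genotype, strain and age and differ in position. The libraries of a pair also differed in their totals, as given below. The assay was Geo-seq, in which small groups of cells are cut by laser from cryosections and their RNA is sequenced, and every value is an FPKM, fragments scaled to transcript length and to the reads mapped in the library. Embryos 1, 2 and 4 were cut into 7 sections, embryo 3 into 6, and embryos 5 and 6 into 8, so section 4 lies at 50 to 66.7% of the section series. The deposited table of embryo 6 is named for E6.0 although its labels say E6.5.

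In the mouse, NODAL, WNT3 and FGF8 act on the posterior epiblast, where cells switch on T-box and homeobox factors such as Eomes, T and Mixl1 before they leave the epithelium through the primitive streak. The streak starts next to the extra-embryonic tissue and lengthens towards the distal tip, and Foxa2 and Gsc mark its leading, anterior end, which gives rise to definitive endoderm and axial mesoderm. The anterior epiblast keeps Sox2, Otx2 and Pou3f1 and goes on to form neural and surface ectoderm.

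The libraries held epiblast markers, with an uneven share of visceral endoderm RNA, the outer layer that lines the epiblast. Summed over 10 epiblast markers, P libraries held 285 to 1591 FPKM (median 1374) and A libraries 494 to 1774 FPKM (median 1312). Summed over 12 visceral endoderm markers, P libraries held 6.55 to 1911 FPKM (median 84.3) and A libraries 3.84 to 1411 FPKM (median 74.0), against 1665 to 39881 FPKM in the 28 endoderm libraries of the same embryos. The mean of this sum per embryo was higher on the P side in 5 of 6 embryos. Its high values sat in embryo 1 section 2 on both sides and in embryo 2 section 4 on the P side, and tips of embryos 1 and 3 reached 13050 and 1569 FPKM. Embryo 1 section 2 P held 1508 FPKM of these markers beside 1408 FPKM of epiblast markers, and embryo 2 section 4 P 1911 beside 1080 FPKM. Most of the sum was Spink3, which ran up to 1766 FPKM (median 66.7) in P and 1269 FPKM (median 52.6) in A. Apoa1, the next, ran up to 91.0 FPKM in P and 99.2 FPKM in A. Markers of extra-embryonic ectoderm summed to at most 4.42 FPKM in P and 5.30 FPKM in A libraries, with Elf5 at 0 in 18 of 18 P and 17 of 18 A libraries. The 6 markers of mesoderm summed to 0.242 to 31.2 FPKM in P and 0.0693 to 3.51 FPKM in A libraries, and the 7 listed markers of decidua and blood to 1.14 to 253 FPKM in P and 1.74 to 279 FPKM in A libraries. The number of genes at 1 FPKM or more averaged 8925 ± 709 in P and 9039 ± 609 in A libraries (SD, n = 6 embryos; two-sided exact sign-flip permutation p = 0.219). Of the 36 libraries, 3 had an FPKM sum under 200000 and are called thin: embryo 5 section 2 P, embryo 6 section 3 P and embryo 6 section 4 A. Their sums were 133277, 176126 and 178471, and those of the other side of the same section 285662, 492133 and 481425.

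**Figure D1:**
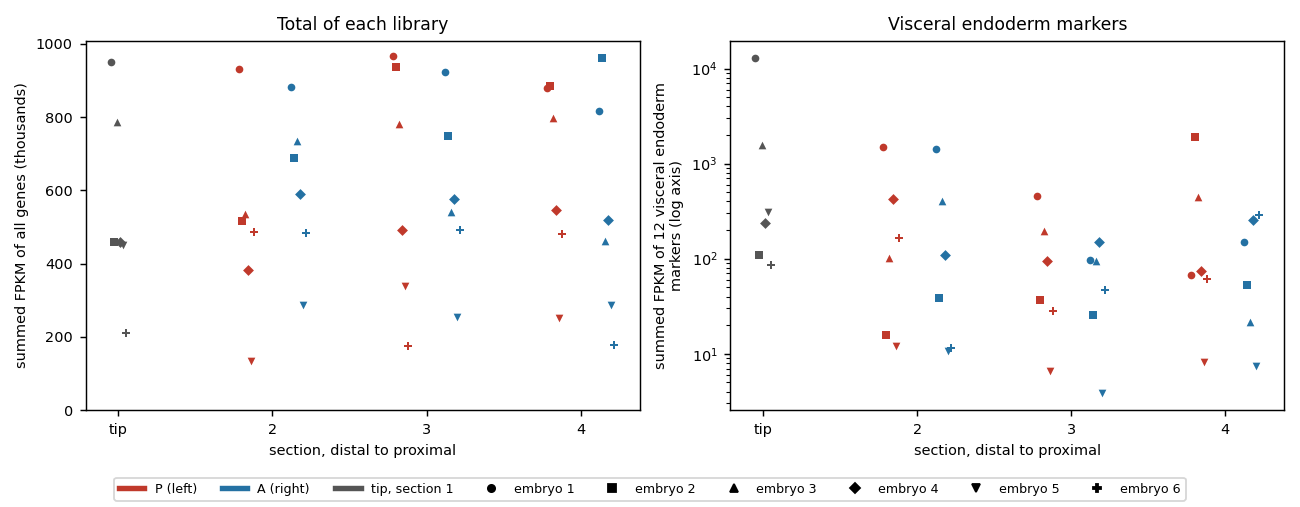
Library measures by section in the 6 embryos, with the distal tip at section 1, P libraries left and A libraries right at each section and 1 point per library: the sum of all FPKM values (axis in units of 1000 FPKM), and the summed FPKM of 12 visceral endoderm markers on a log axis. The tips of embryos 1 and 3 and, among P and A libraries, embryo 1 section 2 and embryo 2 section 4 P stand above 1000 FPKM in the marker plot.

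Posterior distal epiblast held more RNA of the streak transcription factors Foxa2, Mixl1, Eomes and Gsc and of Fst, the gene of an activin antagonist, than anterior distal epiblast, each in 6 of 6 embryos. The difference of P minus A in log2(FPKM + 1) was taken section by section and averaged within an embryo, and limma tested its mean over the 6 embryos. Of 9388 genes tested, 17 passed an adjusted p of 0.05 (0.181%), 15 higher in P (0.16%) and 2 lower in P (0.0213%). At an unadjusted p under 0.05, 173 genes were higher in P (1.84%) and 400 lower (4.26%), and the median difference of all genes was -0.05. With all libraries scaled to an equal FPKM sum the calls were 6 higher and 2 lower, and with equal medians 9 higher and 2 lower. Without section 4 the calls were 2, Fst and Gm19705. Foxa2, Mixl1, Eomes and Gsc then differed by 0.86 to 1.31 and did not pass (limma, adjusted p from 0.0715 to 0.360). In bulk captures like these, fewer cells of a type and less RNA per cell cannot be told apart.

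Because the posterior calls include Foxa2, Epha2 and Eomes, the sequence around their transcription starts is shown here, 250 bases before to 50 after the start, from RefSeq on GRCm38.p6. Each is written 5′ to 3′ on the strand of its gene, and capitals mark a match to a motif that was searched for. RefSeq gives 3 windows for Foxa2, and the window shown is the 1 that held a match, at a start inside the gene and not at its outer end. The windows are chr2:148045415-148045714 (minus strand) for Foxa2, chr4:141300971-141301270 (plus strand) for Epha2 and chr9:118477939-118478238 (plus strand) for Eomes.
Foxa2: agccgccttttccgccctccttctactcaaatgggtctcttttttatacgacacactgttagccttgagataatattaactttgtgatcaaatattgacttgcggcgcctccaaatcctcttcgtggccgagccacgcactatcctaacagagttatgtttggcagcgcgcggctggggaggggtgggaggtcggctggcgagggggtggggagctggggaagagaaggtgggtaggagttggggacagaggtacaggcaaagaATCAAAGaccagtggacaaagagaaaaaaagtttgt
Epha2: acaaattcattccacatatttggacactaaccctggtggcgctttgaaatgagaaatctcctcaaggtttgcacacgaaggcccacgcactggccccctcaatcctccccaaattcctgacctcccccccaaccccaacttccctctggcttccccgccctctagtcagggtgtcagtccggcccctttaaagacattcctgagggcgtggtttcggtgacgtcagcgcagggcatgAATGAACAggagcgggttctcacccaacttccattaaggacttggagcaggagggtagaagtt
Eomes: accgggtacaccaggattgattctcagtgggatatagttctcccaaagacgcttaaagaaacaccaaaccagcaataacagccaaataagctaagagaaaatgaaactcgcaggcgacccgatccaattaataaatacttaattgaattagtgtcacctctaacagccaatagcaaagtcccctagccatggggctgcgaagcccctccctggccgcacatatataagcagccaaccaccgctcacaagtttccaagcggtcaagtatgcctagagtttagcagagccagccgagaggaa
The capitals in Foxa2 are the TCF/LEF letters CTTTGAT read on the opposite strand, 14 bases after the start, and those in Epha2 are the FOXH1 letters AATNNACA, 13 bases before the start. In Eomes none of the 5 motifs searched is in this window. On both strands, CTTTGAT was in 3.73% of 32851 promoter windows, AATNNACA in 12.2%, the T-box letters GGTGTGA in 3.98%, the octamer ATGCAAAT in 1.74% and the SOX letters AACAAT in 10.7%. Of the 15 genes higher in P, 10 had RefSeq windows, 19 in all, and these held 2, 2, 1, 0 and 1 windows with the 5 motifs in that order. A match describes the letters only.

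Foxa2 (chr2:148042877-148046969, GRCm38, minus strand), a forkhead factor of the anterior streak, node and endoderm, had the largest difference of the called genes. Its embryo means ran over 3.47, 9.38 and 28.3 FPKM (lowest, median and highest of 6) in P, against 0.0636, 0.600 and 2.27 FPKM in A. The embryo means did not overlap between the sides, and P was above A in 16 of 18 section pairs. The difference was 2.05 ± 0.27 (moderated SE) in log2(FPKM + 1), positive in 6 of 6 embryos (limma, adjusted p = 0.00748). In section 4 the P libraries of embryos 1 to 6 held 21.8, 42.1, 30.4, 12.5, 7.12 and 21.9 FPKM, against 1.37, 1.51, 0.657, 0.908, 0 and 0 FPKM in A. Every P library of section 4 thus lay above every A library of that section. Foxa2 is also made by visceral endoderm, and the part of that layer in these values was not tested. Embryo 2 section 4 P held 42.1 FPKM of Foxa2 and 1911 FPKM of visceral endoderm markers, and embryo 2 section 3 P held 38.2 FPKM of Foxa2 and 37.0 FPKM of these markers. Without the 2 section pairs high in these markers, a sum that was mostly Spink3, the difference was 2.21 (adjusted p = 0.000274). The call was lost without embryo 3 (2.08, adjusted p = 0.0574), without embryo 6 (2.03, adjusted p = 0.122) and without the 3 section pairs that hold a thin library (1.98, adjusted p = 0.0628).

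Gsc (chr12:104471209-104473330, minus strand), the goosecoid homeobox gene of the organizer region, went with it. Over the 18 libraries of a side it ran over 0.492, 5.35 and 58.9 FPKM (lowest, median and highest) in P, against 0, 2.05 and 9.91 FPKM in A. The embryo means overlapped between the sides, yet each embryo was higher in P, by 1.50 ± 0.21 (adjusted p = 0.00387), and P exceeded A in 15 of 18 section pairs. In section 2 P was above A in 3 of 6 embryos, and in section 4 all 6 P libraries, from 3.70 to 58.9 FPKM, lay above all A libraries, from 0 to 2.65 FPKM.

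Mixl1 (chr1:180693043-180697034, minus strand), a paired-type homeobox gene of the streak, averaged 16.7 ± 16.5 FPKM in P and 0.621 ± 0.370 FPKM in A (SD, n = 6 embryos). The P embryo means began at 2.52 FPKM, above the highest A embryo mean of 1.26 FPKM. The difference was 1.95 ± 0.23 (adjusted p = 0.00285) and positive in 6 of 6 embryos. Most of it lay in section 4, where the P libraries of embryos 1 to 6 held 4.48, 71.7, 39.6, 128, 13.0 and 11.8 FPKM and no A library passed 1.47 FPKM. In section 2 the P libraries held 0.0742 to 3.44 FPKM and the A libraries 0 to 3.00 FPKM, which overlap.

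Eomes (chr9:118478212-118486132, plus strand), a T-box factor needed for mesoderm to leave the epiblast and for definitive endoderm, averaged 24.4 ± 11.3 FPKM in P and 4.96 ± 2.67 FPKM in A. P exceeded A in 17 of 18 section pairs, and the difference was 1.77 ± 0.22 (adjusted p = 0.00285). Section 4 of embryos 1 to 6 held 18.5, 71.2, 64.8, 63.4, 23.2 and 44.0 FPKM in P, against 10.1, 16.9, 5.25, 6.31, 0.884 and 4.04 FPKM in A, with no overlap. The P embryo means, from 10.2 FPKM, lay above the A embryo means, which ended at 8.21 FPKM.

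T, or Brachyury (chr17:8434423-8442496, plus strand), the T-box factor of the streak and nascent mesoderm, did not pass. It averaged 3.91 ± 3.52 FPKM in P and 0.392 ± 0.171 FPKM in A, a difference of 0.94 ± 0.23 (adjusted p = 0.142) that was positive in 5 of 6 embryos. The P libraries of section 2 ran up to 0.963 FPKM and those of section 3 up to 3.11 FPKM. In section 4 they held 1.10, 25.4, 6.07, 20.7, 7.32 and 1.78 FPKM, against at most 1.52 FPKM in A. Snai1, a repressor of the epithelial state, differed by 0.87 (adjusted p = 0.459) and Lhx1, a LIM homeobox gene, by 0.52 (adjusted p = 0.490). Mesp1, Evx1 and Sp5, which mark later streak and mesoderm in proximal sections, averaged 0.355, 0.373 and 0.753 FPKM in P and 0.0559, 0.0180 and 0.0301 FPKM in A, and were under the filter of a mean of 1 FPKM. Of the list of 22 streak transcription factors, 12 were tested and 4 rose in P (Mixl1, Eomes, Gsc and Foxa2), beside 0.16% of all genes. Their median difference was 0.83 beside -0.05 over all genes. The filter took the mean of both sides, and Mixl1 and T, under 1 FPKM in A, passed it through P. This count and median therefore describe the members kept and are no test of the list. With an equal FPKM sum 3 of 11 rose, Gsc then having an adjusted p of 0.0680.

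**Figure D2:**
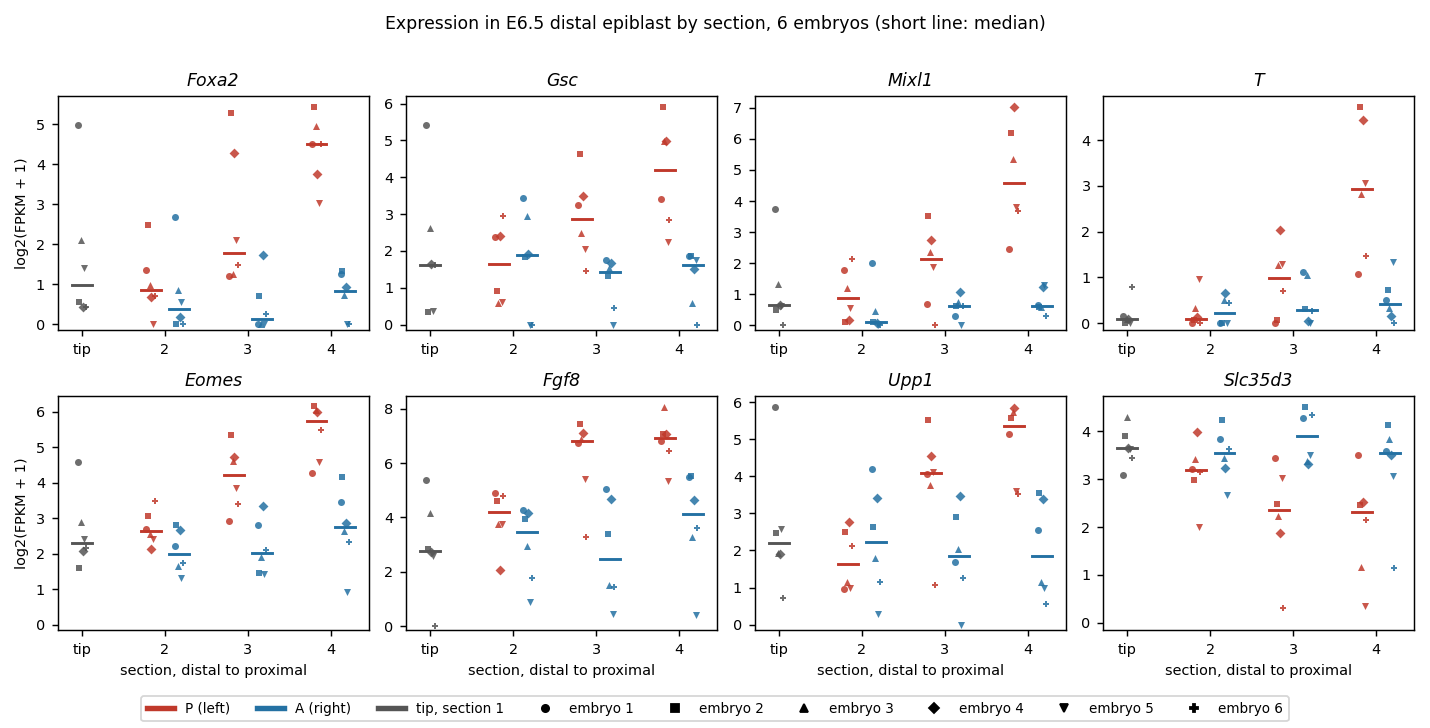
Log2(FPKM + 1) of 8 genes by section in the 6 embryos, with the tip (section 1) in grey, P in red at the left and A in blue at the right of sections 2, 3 and 4, 1 point per library with a symbol for each embryo and a line at the median. The P points of Foxa2, Gsc, Mixl1 and Eomes lie above the A points without overlap in section 4, T overlaps in all 3 sections, and the medians of Slc35d3 are lower in P in each.

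Of the ligands and their regulators, Wnt3 (chr11:103774150-103817957, plus strand), the WNT ligand without which no streak forms in the mouse, rose in P. Its embryo means ran over 1.02, 3.93 and 6.60 FPKM in P, against 0.0681, 0.320 and 0.788 FPKM in A. They did not overlap, and the difference was 1.38 ± 0.23 (adjusted p = 0.0194), although it was near 0 in embryo 1 (0.13). Leaving out embryo 3, 4, 5 or 6 ended the call, at an adjusted p of up to 0.127, as did an equal FPKM sum (adjusted p = 0.0973) and equal medians (adjusted p = 0.115). Wnt8a, another WNT ligand of the streak, differed by 0.94 (adjusted p = 0.0689) and Axin2, a feedback target of WNT, by 0.90 (adjusted p = 0.0632), both positive in 6 of 6 embryos. Of 34 WNT ligands, receptors and regulators, 16 were tested and 1 rose, beside 0.16% of all genes. Of 15 WNT targets, 8 were tested and 0 passed, against 3 higher and 2 lower at an unadjusted p under 0.05. Over all genes 1.84% were higher and 4.26% lower at that threshold.

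Fgf8 (chr19:45736798-45742915, minus strand), the FGF that cells need to move away from the streak, had the highest mean difference of the ligands and did not pass. It held 3.15, 64.8 and 265 FPKM (lowest, median and highest of 18 libraries) in P, against 0.321, 10.5 and 45.1 FPKM in A. P exceeded A in 17 of 18 pairs. The embryo differences spread over 0.92 to 4.27, with a mean of 2.45 ± 0.52 (adjusted p = 0.305). The exception was embryo 4 in section 2, at 3.15 FPKM in P and 16.8 FPKM in A. Among 16 tested of 23 FGF pathway genes 0 passed.

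Fst (chr13:114452290-114458951, minus strand), which encodes the secreted activin antagonist follistatin, was the pathway's called gene among 25 NODAL pathway genes, of which 16 were tested. It averaged 22.8 ± 14.1 FPKM in P and 4.03 ± 2.86 FPKM in A, without overlap of the embryo means, and differed by 1.81 ± 0.22 (adjusted p = 0.00285). It did not pass with an equal FPKM sum (adjusted p = 0.0680) or without the thin section pairs (adjusted p = 0.190). Nodal itself averaged 17.4 ± 4.99 FPKM in P and 6.13 ± 4.61 FPKM in A, and its co-receptor gene Tdgf1 132 ± 28.2 FPKM in P and 56.0 ± 25.2 FPKM in A. Both were higher in P in 6 of 6 embryos, by 1.44 ± 0.40 (adjusted p = 0.449) and 1.09 ± 0.25 (adjusted p = 0.171), and did not pass. The NODAL antagonists Lefty2 and Lefty1 differed by 1.09 (adjusted p = 0.150) and 0.78 (adjusted p = 0.0974). Cfc1, the other co-receptor gene of the list, differed by -0.19 (adjusted p = 0.999), with P above A in 0 of 6 embryos in section 2 and in 6 of 6 in section 4.

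The other genes that rose in P were Epha2, Pkdcc, Upp1, Apln, Sgk1, Tcea3, Olig1, Cxx1c and Cxx1a. Epha2 (chr4:141301240-141329384, plus strand), an ephrin receptor kinase, averaged 7.61 ± 2.57 FPKM in P and 2.51 ± 1.07 FPKM in A. Its embryo means did not overlap, P exceeded A in 17 of 18 pairs, and the difference was 1.13 ± 0.16 (adjusted p = 0.00285). Its relative Epha1 differed by 0.70 (adjusted p = 0.0974). Pkdcc (chr17:83215292-83225070, plus strand), a secreted tyrosine kinase, ran over 3.45, 13.7 and 42.8 FPKM in the P libraries, against 0.512, 4.58 and 14.2 FPKM in A. The ranges overlapped, with P above A in 17 of 18 pairs and a difference of 1.47 ± 0.19 (adjusted p = 0.00285). Upp1, uridine phosphorylase, averaged 19.0 ± 10.6 FPKM in P and 4.84 ± 4.06 FPKM in A (1.44 ± 0.20, adjusted p = 0.00426). P was above A in 2 of 6 embryos in section 2 and in 6 of 6 in section 4. Without embryo 3 its adjusted p was 0.0574.

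Apln, the ligand of the apelin receptor, averaged 3.08 ± 1.37 FPKM in P and 0.548 ± 0.0919 FPKM in A and differed by 0.97 ± 0.17 (adjusted p = 0.0194). Sgk1, a serine/threonine kinase, averaged 22.2 ± 6.10 FPKM in P and 10.0 ± 3.30 FPKM in A. Its difference of 0.94 ± 0.18 passed narrowly (adjusted p = 0.0465), as did those of Tcea3, a transcription elongation factor (0.93 ± 0.17, adjusted p = 0.0444), and Olig1, a basic helix-loop-helix factor best known from the oligodendrocyte lineage (1.02 ± 0.20, adjusted p = 0.0465). Olig1 was under the level the naming rule asked for and was named after its values were seen, because it was called. Leaving out an embryo ended the call for Apln (embryo 2, 3 or 4, adjusted p up to 0.125), Sgk1 (2, 3, 5 or 6, up to 0.148), Tcea3 (2, 3 or 5, up to 0.148) and Olig1 (2, 3, 4 or 6, up to 0.206). Cxx1c and Cxx1a, near-identical copies between which reads can be split, differed by 1.16 ± 0.15 (adjusted p = 0.00285) and 0.80 ± 0.15 (adjusted p = 0.0465), and both values are uncertain for that reason. Cxx1a lost its call without embryo 1, 2, 3, 4 or 5 (adjusted p up to 0.148).

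On the anterior side Slc35d3 and Gm19705 passed. Slc35d3 (chr10:19847916-19851459, minus strand), of the nucleotide sugar transporter family, ran over 0.239, 4.66 and 14.8 FPKM in the P libraries, against 1.21, 10.7 and 21.8 FPKM in A. The ranges overlapped, but P exceeded A in 2 of 18 pairs and in 0 of 6 embryos. It fell by 1.07 ± 0.16 on the log2 scale (adjusted p = 0.00442). Its adjusted p was 0.0574 without embryo 3, 0.0680 with an equal FPKM sum, 0.0641 with equal medians and 0.0640 without the thin section pairs, where 0 genes were lower. Gm19705, a predicted gene outside the naming rule that is named after its values were seen, was the other, at -1.02 ± 0.15 (adjusted p = 0.00387).

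Known anterior epiblast genes did not pass. Sox2, the SRY-related factor kept in the neural lineage, averaged 7.04 FPKM in P and 11.1 FPKM in A, with P above A in 2 of 18 pairs (-0.65 ± 0.16, adjusted p = 0.142). Pou3f1, a POU factor of neural commitment, averaged 25.0 FPKM in P and 35.2 FPKM in A (-0.62, adjusted p = 0.171), and Otx2, the homeobox factor of the future head, 35.3 FPKM in P and 46.3 FPKM in A (-0.38, adjusted p = 0.313). Slc7a3, a transporter of basic amino acids, averaged 62.1 ± 24.3 FPKM in P and 93.9 ± 20.2 FPKM in A, lower in P in 6 of 6 embryos (-0.66 ± 0.14, adjusted p = 0.0689). Slc2a1, the main glucose transporter, differed by -0.56 ± 0.12 (adjusted p = 0.0689), and passed with an equal FPKM sum (-0.52, adjusted p = 0.0390) and with equal medians (-0.51, adjusted p = 0.0273), where it and Gm19705 were the 2 lower calls. Of 22 anterior epiblast and neural genes 12 were tested and 0 passed, with a median of -0.28 beside -0.05 over all genes. At an unadjusted p under 0.05, 6 were lower and 0 higher in P, beside 4.26% lower and 1.84% higher over all genes.

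**Figure D3:**
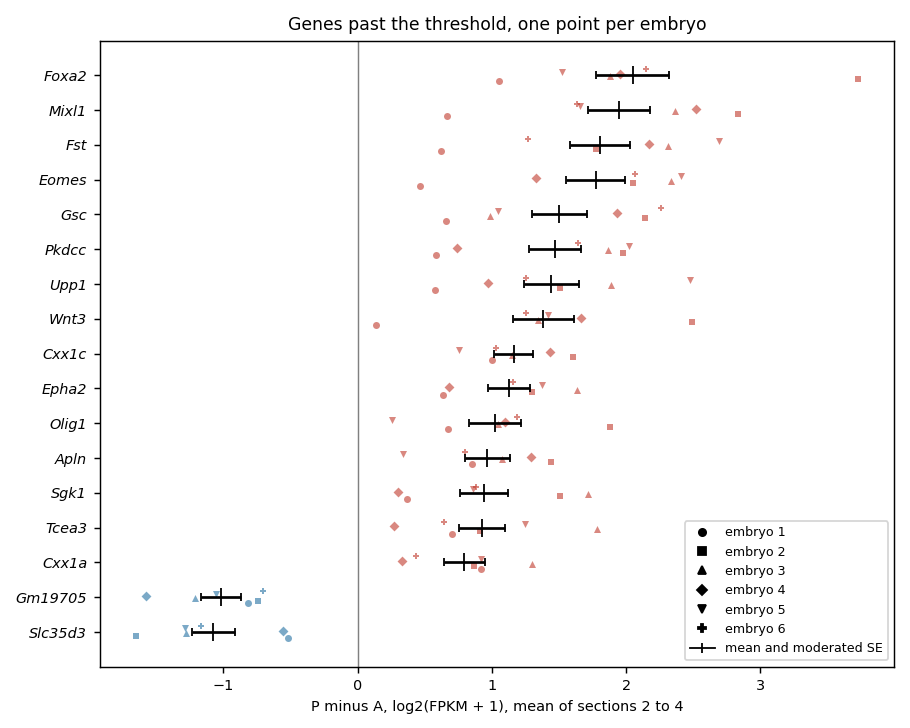
The 17 called genes with P minus A in log2(FPKM + 1) on the horizontal axis, 1 point per embryo and the mean with its moderated SE. Foxa2, Mixl1, Fst and Eomes have the highest means, 2.05 to 1.77, and all 6 points of Slc35d3 and Gm19705 are below 0.

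The posterior excess of the called genes was lowest in section 2 and highest in section 4. The median of the mean differences of the 15 genes higher in P was 0.29 in section 2 (range -0.50 to 0.98), 1.26 in section 3 (0.35 to 2.16) and 2.28 in section 4 (1.29 to 3.97). These genes were chosen on the mean over the same sections, so the medians are a description. The median over all genes moved too, at -0.32 in section 2, -0.09 in section 3 and 0.26 in section 4. A straight line through the differences of sections 2 to 4 in each embryo had a slope above 0 for 137 of 9388 genes (1.46%; limma, adjusted p under 0.05) and below 0 for 0. The median slope of all genes was 0.29 per section, and with an equal FPKM sum or equal medians 0 genes passed, with 557 and 636 at an unadjusted p under 0.05. Measured from that median, the slope was 1.42 per section for Mixl1, 1.40 for Upp1, 1.38 for Foxa2, 0.94 for Cfc1, 0.93 for T and 0.74 for Eomes. The count of 137 was 0 without embryo 6, 9 without embryo 3, 16 without embryo 4, 28 without embryo 5, 775 without embryo 2 and 2478 without embryo 1.

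Several streak factors had a smaller posterior excess in the distal sections than in the proximal sections. Each embryo's mean P-minus-A difference in sections 2 to 4 was set against that of its own 2 to 4 proximal sections. Of 9541 genes tested, 17 passed (0.178%): 2 had a larger signed difference in sections 2 to 4 (0.021%) and 15 a smaller one (0.157%). Of these 15, 8 were streak transcription factors of the list, of which 17 were tested, beside 0.157% of all genes. Mesp1, Evx1 and Sp5 were under the filter in sections 2 to 4 and passed it here through the proximal sections. This count is therefore a description and no test of the list. With an equal FPKM sum the calls were 2 larger and 6 smaller, 5 of them streak factors, and with equal medians 1 smaller, Mesp1.

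Mesp1 (chr7:79792241-79793788, minus strand), the basic helix-loop-helix factor of nascent mesoderm, averaged 0.355 FPKM in distal P and 0.0559 FPKM in distal A libraries, and 73.4 ± 34.0 FPKM in proximal P and 3.21 ± 3.46 FPKM in proximal A libraries. The difference of differences was -3.88 ± 0.35 (adjusted p = 0.000138), and it passed in all 16 alternatives run for it. T differed by 0.94 in the distal sections and by 3.91 in the proximal sections, a gap of -2.96 ± 0.39 (adjusted p = 0.00939). Mixl1 differed by 1.95 in the distal and by 4.76 in the proximal sections (-2.81 ± 0.44, adjusted p = 0.0379). Sp5, a WNT target, had a gap of -2.30 (adjusted p = 0.00300), Lhx1 of -1.80 (adjusted p = 0.00478), Evx1 of -1.71 (adjusted p = 0.00478) and Snai1 of -1.79 (adjusted p = 0.0280). BC023829, a gene outside the naming rule and also named after its values were seen, had a gap of -1.34 (adjusted p = 0.0280). The call was lost for Mixl1 without embryo 1, 2, 3, 5 or 6 (adjusted p up to 0.601), for T without embryo 1, 5 or 6 (up to 0.244) and for Snai1 without embryo 2, 3, 5 or 6 (up to 0.0830). The count of 17 was 9 without embryo 2, 8 without embryo 4, 10 without embryo 5 and 7 without embryo 6.

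For other genes of the distal contrast the gap did not pass. Eomes differed by 1.77 in the distal and by 2.16 in the proximal sections (gap -0.38, adjusted p = 0.983), and Fgf8 by 2.45 in the distal and 2.32 in the proximal sections (gap 0.13, adjusted p = 0.999). Gsc differed by 1.50 in the distal and by 2.39 in the proximal sections, and Fst by 1.81 and 2.77. In that order the values were 1.16 and 2.27 for Cxx1c, 0.97 and 2.44 for Apln and 1.02 and 1.85 for Olig1. For Pkdcc they were 1.47 and 1.28, and for Epha2 1.13 and 1.06. Foxa2 differed by 2.05 in the distal and by 0.83 in the proximal sections, a gap of 1.22 ± 0.51 that did not pass (adjusted p = 0.899), and Nodal by 1.44 in the distal and 0.55 in the proximal sections (gap 0.89, adjusted p = 0.634). The pair with a positive gap that passed was Spink3 (1.97, adjusted p = 0.0476) and Rhox5 (1.51, adjusted p = 0.0391). Spink3 is a protease inhibitor used here among the visceral endoderm markers, and Rhox5 is an X-linked homeobox gene known from extra-embryonic tissue. Spink3 differed by 0.66 in the distal and by -1.31 in the proximal sections, and Rhox5 by 0.89 and -0.62. Spink3 averaged 278 FPKM in distal P and 152 FPKM in distal A libraries and is itself part of the visceral endoderm marker sum. Without the section pairs high in those markers their adjusted p-values were 0.872 and 0.127. Spink3 was also lost without embryo 1, 2, 4 or 6 (adjusted p up to 0.414) and Rhox5 without embryo 2, 3, 4 or 6 (up to 0.343).

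**Figure D4:**
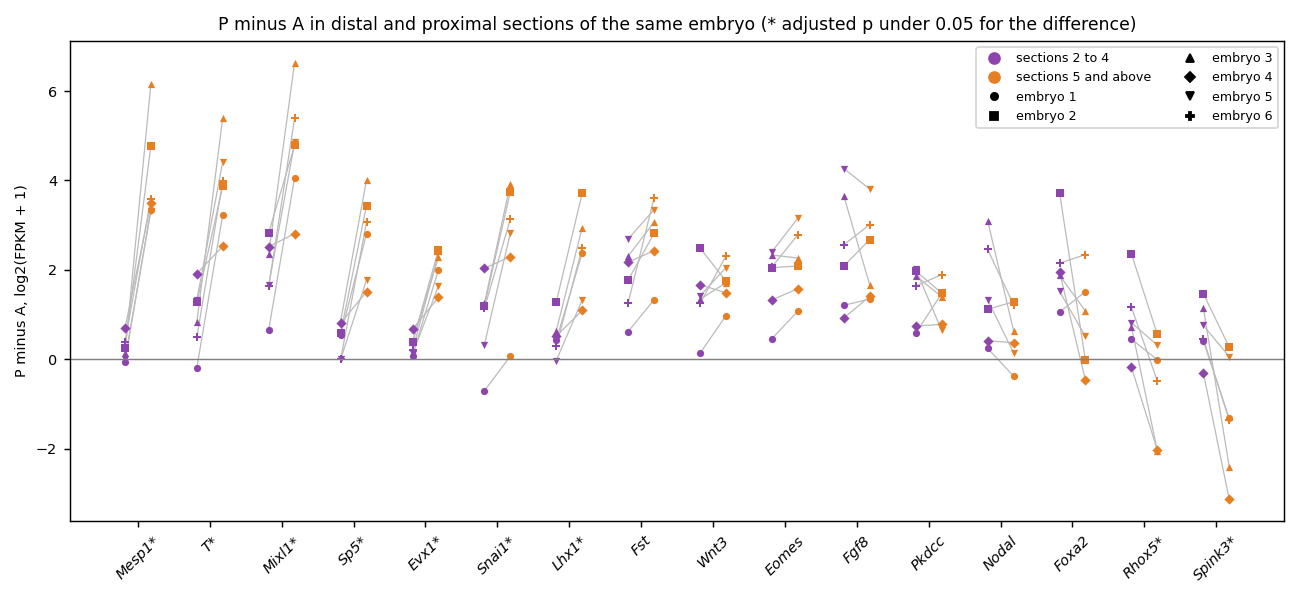
P minus A in log2(FPKM + 1) for 16 genes, in sections 2 to 4 (purple, left) and in sections 5 and above (orange, right), 1 point per embryo and a line joining the points of an embryo, with an asterisk at genes whose gap between both parts passed. Mesp1, T and Mixl1 average 3.91 to 4.76 in the proximal sections, and the means of Eomes and Fgf8 are 1.77 and 2.45 in the distal and 2.16 and 2.32 in the proximal sections.

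The distal tip held less RNA of 2 streak ligands and a chemokine than P as deposited, and with an equal FPKM sum or equal medians 0 genes passed. The median of tip minus P over all genes was 0.12 as deposited, 0.16 with an equal FPKM sum and -0.02 with equal medians. Set against P of sections 2 to 4 in the same embryo, 3 of 9521 genes passed (0.0315%), all lower in the tip: Fgf8 (-2.70 ± 0.41, adjusted p = 0.0327), Wnt3 (-1.71 ± 0.28, adjusted p = 0.0275) and Cxcl12, a chemokine (-1.64 ± 0.30, adjusted p = 0.0468). Without embryo 2 or 5 none of the 3 passed, and without embryo 6 Wnt3 and Cxcl12 did not (adjusted p up to 0.543 for Fgf8, 0.341 for Wnt3 and 0.372 for Cxcl12). Wnt3 was at most 0.216 FPKM in the 6 tips, and Wnt8a was at 0 in all of them. Set against A, 0 of 9507 genes passed (0%) with limma, and 287 (3.02%) had an unadjusted p under 0.05, so no difference from A was detectable here. Slc35d3 averaged 12.1 FPKM in the tips, 5.74 FPKM in P and 11.9 FPKM in A. The tip of embryo 1 stood apart, with 182 FPKM of Fst, 41.5 FPKM of Gsc and 30.6 FPKM of Foxa2 beside 13050 FPKM of visceral endoderm markers. The part of that layer in these values was not tested. Without embryo 1 the calls were 46 against P and 10 against A, and against P they were 0 without embryo 2 or 5, 9 without embryo 4 and 1 without embryo 6.

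Of the 17 genes called between P and A, 8 passed with each embryo left out in turn: Mixl1, Eomes, Gsc, Fst, Pkdcc, Cxx1c, Epha2 and Gm19705. The count of calls was 42 without embryo 1 and 9 without embryo 3. None of the 17 changed sign in any alternative run for it, which were 22 for 13 of them and 21 for Wnt3, Cxx1a, Olig1 and Apln, whose means were under the filter of 5 FPKM. Each of the 17 had the same sign in every embryo, so leaving out embryos could not turn it. Changes of filter, moderation or pairing left the difference itself as it was. Without the section pairs high in visceral endoderm markers 13 of the 17 passed, and without those holding a thin library 8 did.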

How the data were processed

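Geo-seq libraries of 6 embryos were used as deposited: FPKM values of 23361 genes per table, which the authors made with TopHat2 2.0.8b and Cufflinks 2.1.1 on mm10, per the submitters' processing notes. The annotation and options are not given in the sources used here. Regions came from column names matched to the labels, and 2 columns that matched no sample were not used. The deposited files give no read counts. A rough depth estimate from the smallest FPKM steps had a median per embryo of 2.37 to 10.6, in units of 1000000 reads, and was lowest in embryos 5 and 6.

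Values were analysed as log2(FPKM + 1), for which a fold understates the change of low genes, with genes of a mean of 1 FPKM or more. P minus A was paired by section and averaged per embryo, the replicate. The 2 deviations of P and A within an embryo correlated at 0.505 to 0.794 over 9388 genes, against -0.601 to 0.471 between embryos. Sequencing depth also differed between embryos, and the source of the correlation was not tested. limma 3.58.1 (R 4.3.3; intercept, trend and robust moderation) gave two-sided p-values adjusted by Benjamini-Hochberg over all genes. The fit was also run on simulated data with planted differences, which held no shift shared by the genes of a library. The same fit was used for slopes over sections, for distal against proximal sections and for the tip against P or A. FPKM sums and gene numbers had exact sign-flip tests over embryos, whose smallest p is 0.03125.

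Named genes were up to 12 each way with the largest difference among those called, of 1 sign in 6 of 6 embryos and at a mean of at least 5 FPKM on a side, predicted genes left out, up to 6 each way in the distal against proximal comparison and the slopes, up to 3 per list by smallest p, and a fixed set. Genes were placed by GENCODE vM21 on GRCm38. The members and the 28 gene lists were chosen with earlier results of these data known. Alternatives changed the pseudocount, filter, scaling, moderation, pairing, sections and embryos, and those without thin or endoderm-rich libraries were chosen after seeing the data.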

Additional observations from a re-analysis of the deposited data

Results flagged for a closer look

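For 17 genes, BC023829 (-1.34) and the 16 given here, the P-minus-A difference in log2(FPKM + 1) was not the same in sections 2 to 4 as in sections 5 and above of the same embryos, by limma's test of the gap itself. The gap was -3.88 for Mesp1, -2.96 for T, -2.81 for Mixl1, -2.30 for Sp5, -1.80 for Lhx1, -1.79 for Snai1, -1.71 for Evx1 and -1.68 for Mesp2, all transcription factors of the streak or nascent mesoderm with a smaller posterior excess in the distal sections. It was -2.05 for the protease inhibitor gene Slpi (adjusted p = 0.0770 without embryo 4), -1.53 for Fam212a, -1.41 for the protocadherin gene Pcdh7, -1.37 for Pdlim4, -1.17 for the carbonic anhydrase gene Car2 and -1.09 for Peg3as, an antisense transcript whose reads cannot be told from those of Peg3 if the counting ignored strand. It was 1.97 for Spink3 and 1.51 for Rhox5, whose mean differences were positive in the distal and negative in the proximal sections. Neither gap passed without the section pairs high in visceral endoderm markers.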

How the results depend on the processing

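The count of 17 calls for P minus A was 8 with a pseudocount of 0.1, 0 without a filter, 35 at a mean of at least 5 FPKM, 8 with an equal FPKM sum, 11 with equal medians, 27 in embryos 1 to 4, 31 without section 2, 2 without section 4 (Fst and Gm19705), 6 in sections up to 0.5 of the way from the first section to the last, 8 without thin libraries and 9 to 42 with an embryo left out. Among sections 2 to 4, the limit of 0.5 left out only section 4 of embryo 3. Foxa2 (limma, adjusted p = 0.110), Gsc (adjusted p = 0.386) and Wnt3 (adjusted p = 0.141) then did not pass. Without pairing by embryo (no replicate block) it was 1, Mixl1, with 108 genes at an unadjusted p under 0.05. For the gap between distal and proximal sections the 17 calls were 2 with a pseudocount of 0.1, 30 with one of 4, 1 without a filter, 7 at 5 FPKM, 8 with an equal sum, 1 with equal medians, 36 in embryos 1 to 4, 10 without the thin distal pairs (2 thin proximal P libraries of embryo 5 stayed in) and 7 to 23 with an embryo left out. The 137 slopes were 0 with a pseudocount of 0.1, without a filter, under either scaling, in embryos 1 to 4 and without thin libraries, 311 with a pseudocount of 4, 1842 at 5 FPKM, 1 without the trend, 1 without libraries high in endoderm markers and 0 to 2478 with an embryo left out. The 3 calls for tip minus P were 1 with a pseudocount of 0.1 or 4, 0 without a filter, under either scaling, in embryos 1 to 4 and without the trend, 6 at 5 FPKM, 9 without tips high in endoderm markers and 0 to 46 with an embryo left out; tip minus A gave 2 at 5 FPKM, 1 in embryos 1 to 4, 6 without such tips and 0 to 10 with an embryo left out. The direction turned for Cfc1 without section 2 (0.29) and without section 3 (0.0835), and without section 4 for Nanog (-0.0048) and Fgf5 (-0.017). The FPKM sum differed by -18776 to 24283 and the gene number by -180 to -63.2 with an embryo left out. The cause of these shifts was not tested. Another filter changed both the number of genes in the adjustment and the genes on which the moderation was fitted. FPKM hide the counts behind low values, so an absent call at a few FPKM says little, and 6 embryos set the precision.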

Other observations

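Epithelial genes leaned towards the anterior side without a call. Of 20 tested members of the epithelial junction and polarity list, 0 passed. At an unadjusted p under 0.05, 6 were lower and 0 higher in P, beside 4.26% lower and 1.84% higher over all genes. The median difference was -0.21 beside -0.05 over all genes. Crb3, of the apical Crumbs complex, averaged 18.9 FPKM in P and 28.9 FPKM in A (-0.65, adjusted p = 0.0974), the tight junction gene Ocln differed by -0.49 (adjusted p = 0.327), and Cdh1, E-cadherin, averaged 21.4 FPKM in P and 24.4 FPKM in A (-0.21, adjusted p = 0.918). Of 9 tested genes of the epithelial to mesenchymal switch 0 passed.

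Of 23 core and primed pluripotency genes, all tested, 0 passed. Pou5f1 averaged 294 FPKM in P and 318 FPKM in A (-0.16, adjusted p = 0.948), Nanog 20.3 FPKM in P and 14.8 FPKM in A (0.34, adjusted p = 0.740) and Utf1 183 FPKM in P and 242 FPKM in A (-0.54, adjusted p = 0.204). Among definitive endoderm and axial mesoderm genes 2 of 12 tested rose (Foxa2 and Gsc, which are also on the list of anterior visceral endoderm, 2 of 7), and Foxa2 was the call among 15 of visceral endoderm. Of nascent mesoderm 1 of 5 tested rose, Apln, and of guidance and migration cues 1 of 12, Epha2. Over all genes 0.16% were called higher in P. Apln, under 1 FPKM in A, passed the filter through P, and these list counts are a description.

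The other lists had no call between P and A in sections 2 to 4, apart from Slc2a1 of the glycolysis list, which passed as lower in P under either scaling. Their tested members numbered 29 for the cell cycle, 20 for glycolysis and lactate, 19 for amino acid transport and one-carbon metabolism, 17 for DNA methylation and chromatin, 15 for basement membrane and matrix, 10 for immediate early and stress genes, 9 for the BMP pathway, 8 each for retinoic acid, Hippo-YAP and decidua and blood, 7 for primordial germ cells, 6 for extra-embryonic ectoderm and trophoblast, 3 for Hox, Cdx and posterior genes and 1 for naive pluripotency. Fgf4, an FGF of the early epiblast, differed by -0.76 (adjusted p = 0.154), and Fgf5, a marker of the whole primed epiblast, by 0.21 (adjusted p = 0.956).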
